A study of Macaca mulatta with 95 samples.

Results

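POU5F1, NANOG, SOX2 and PRDM14 were followed cell by cell through the development of the rhesus macaque (Macaca mulatta) embryo before implantation. These 4 genes were chosen by name as the core pluripotency factors, out of 16049 genes in the deposited table. Earlier results of these data were known at the time. The study sequenced polyadenylated RNA from 95 single cells of embryos fertilised and grown in culture. A membrane dye that stained only the exposed cells of an embryo separated outer from inner cells before it was taken apart. The title of each cell also carries a letter (A, B, D, G or H) whose meaning the labels do not give, and no label names an embryo, so each group of cells is treated as 1 sample and no p-value is given.

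The groups, from young to old, were as follows. At the 16-cell stage, near day 3, there were 3 outer and 2 inner cells of letter B. The early morula, near day 4, gave 5 outer and 5 inner cells of letter H, and the late morula, near day 4.5, gave 5 outer and 5 inner cells of letter D. Early blastocysts, near day 5, gave 6 outer cells of letter A and 10 inner cells, of which 5 were of letter A, 3 of G and 2 of H. Middle blastocysts, near day 5.5, gave 5 outer cells of letter B and 12 inner cells, with 4 each of letters B, G and H. Late blastocysts, near day 6, gave 19 inner cells, 15 with the letter G and 4 with H. Hatched blastocysts, near day 7, gave 9 inner cells with each of the letters G and H. For 9 late blastocyst cells (5 with the letter G and all 4 with H) the labels conflict, the title giving the late and the source name the hatched stage. They stand here under the title, and the stage means and comparisons that rest on them are also given without them, except in letter H, where no late cell would be left. Up to the late morula each stage has 1 letter, so the stage and the letter cannot be told apart there.

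POU5F1 (also called OCT4) is a POU-domain transcription factor that binds DNA together with SOX2, an HMG-box factor, at enhancers of genes active in pluripotent cells. NANOG is a homeodomain factor that helps to hold cells in the pluripotent state, and in the blastocyst it marks the epiblast, from which the fetus forms. PRDM14 is a PR-domain zinc-finger protein known for its role in primordial germ cells and in keeping mouse and human embryonic stem cells undifferentiated. In mouse embryos POU5F1 is lost from the trophectoderm, the outer layer that builds the placenta, and NANOG and SOX2 are lost from the hypoblast, the layer that lines the yolk sac.

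The deposited values behave as reads scaled by gene and by cell, and they were read as RPKM. In RPKM a gene's reads are divided by its length in kilobases and by the megareads of the cell. The 4 genes could be turned back into whole reads in every cell, and the median cell held 9.84 megareads of recovered reads (lowest 1.93, highest 15.2). A level of 10 RPKM, used below to count a cell as holding a gene, stood for at least 49 reads of POU5F1, 56 of NANOG, 76 of SOX2 and 77 of PRDM14 even in the shallowest cell. Intervals on shares are exact binomial intervals at 95% and cover counting of cells only, and since PCR reads carry no molecular identifiers here, limits set at 3 reads cover counting error only. The depth of a cell relative to the median ran from 0.218 to 1.54, and 6 cells, 4 of them of the late morula, were under 0.5. Dividing each cell by a size factor (the median ratio of its values to the average over cells) shifted the median difference of all genes by up to 2.34 on the log2 scale, in the late against the early morula, and the text says where that ends or turns a call. Summed markers of cumulus cells, which surround the oocyte, reached at most 22.5 RPKM in any cell.

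POU5F1 was the most abundant of the 4 in 94 of 95 cells. Its stage means over all cells were 4723 RPKM at the 16-cell stage (SD over cells 1135, n = 5), 1581 in the early morula (474, n = 10), 7718 in the late morula (1409, n = 10), 2656 in early (1405, n = 16), 3371 in middle (3299, n = 17), 2485 in late (2989, n = 19) and 1521 in hatched blastocysts (1653, n = 18). The spread was narrow in the morula, where every one of the 10 late cells (6037 to 10064 RPKM) stood above every early one (955 to 2483 RPKM), and in the late blastocyst it ran from no read to 9054 RPKM. Ordered by mean, the stages ran late morula, 16-cell, middle, early and late blastocyst, early morula and hatched blastocyst, and the ranges of neighbours in that order overlapped. Without the 9 cells of conflicting stage the late blastocyst averaged 4269 RPKM (3171, n = 10), next below the late morula and the 16-cell stage. POU5F1 was among the 100 highest genes in 66 cells, with a median rank of 46 over all cells. It ranked between 7 and 17 in the 10 late morula cells, and its median rank in hatched blastocyst cells was 1985. Near-identical copies of POU5F1 and NANOG have no row of their own in the table and the annotation behind it is not given, so reads shared with such copies are uncertain.

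NANOG had far lower stage means than POU5F1. Its stage means were 36.7 RPKM at the 16-cell stage (SD 28.9), 93.2 in the early morula (49.6), 14.5 in the late morula (16.5), 89.9 in early (102.9), 28.3 in middle (46.0), 286.8 in late (401) and 314 in hatched blastocysts (366). All 15 cells of the 16-cell stage and early morula held at least 10 RPKM. From the late morula on, cells under 10 RPKM of NANOG appeared beside cells at or above it. NANOG reached 10 RPKM in 4 of 10 late morula cells and 11 of 16 early blastocyst cells. Every cell of these 2 stages still held at least 1 RPKM. Among later cells, 6 of 17 middle, 10 of 19 late and 9 of 18 hatched blastocyst cells reached 10 RPKM. Without the 9 cells of conflicting stage the late blastocyst averaged 354 RPKM (390, n = 10), above the hatched one. Cells of late and hatched blastocysts were the highest, at up to 1208 RPKM, and the ranges of stages next to each other in order of mean overlapped.

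SOX2 had its lowest stage mean in the middle and its highest in the late blastocyst. Its means were 15.3 RPKM at the 16-cell stage (SD 13.7), 12.9 in the early morula (12.8), 7.91 in the late morula (14.5), 10.3 in early (18.8), 1.18 in middle (3.23), 28.4 in late (46.4) and 14.5 in hatched blastocysts (19.3). Only 1 of 17 middle blastocyst cells reached 10 RPKM, against 3 of 5 cells at the 16-cell stage, 4 of 10 in the early morula, 2 of 10 in the late morula and 4 of 16 in the early blastocyst. In late and hatched blastocysts 6 of 19 and 8 of 18 cells did. The late blastocyst averaged 50.9 RPKM (55.5, n = 10) without the 9 cells of conflicting stage. The highest cells were of the late blastocyst, at 127 RPKM, and ranges again overlapped between stages next to each other in order of mean.

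PRDM14 was at 10 RPKM or more in every cell of the 16-cell stage and under it in every early morula cell. At the 16-cell stage the 3 outer cells held 17.1, 24.1 and 48.9 RPKM and the 2 inner cells 34.8 and 78.2. In the early morula 5 outer cells held between 0 and 4.44 RPKM and 5 inner cells between 0 and 7.40, so that no cell of either stage lay in the range of the other. From the late morula on PRDM14 reached 10 RPKM in a minority of cells, namely 2 of 10 late morula, 6 of 16 early, 3 of 17 middle, 2 of 19 late and 2 of 18 hatched blastocyst cells. The mean over cells was highest at the 16-cell stage, at 40.6 RPKM (SD 24.2), and lowest in the early morula, at 1.23 (2.57), and stages next to each other in order of mean overlapped.

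**Figure D1:**
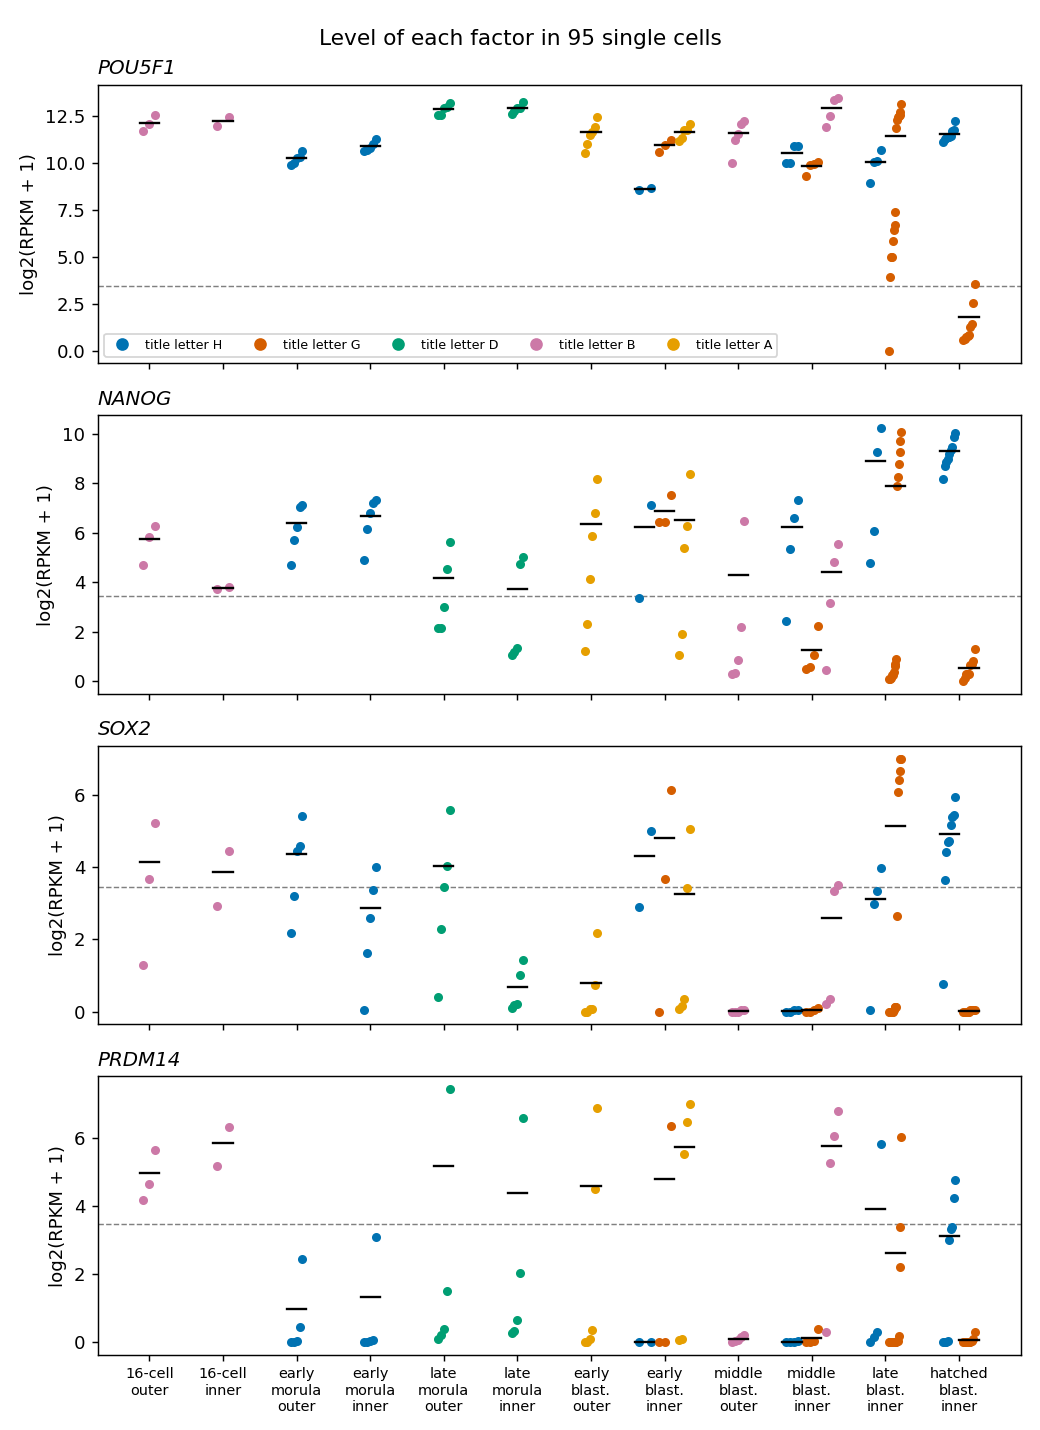
Level of POU5F1, NANOG, SOX2 and PRDM14 in each of 95 cells as log2(RPKM + 1), by stage and position along the axis and by title letter in colour. Black bars are log2 of the group mean plus 1 and dashed lines mark 10 RPKM. POU5F1 is high and tight up to the late morula, while letter G cells of late and hatched blastocysts fall apart or lie near 0.

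Differences between groups are given as log2 of the ratio of group means after adding 1 RPKM, which understates the change of low genes, and are called at 2-fold where a mean reaches 5 RPKM. Of 75 such values over 20 comparisons, 27 were at least 2-fold higher, 21 at least 2-fold lower and 27 within 2-fold. Over all measured genes 25.3% to 79.4% were called in a comparison, and the comparisons share groups, so these counts are not independent. POU5F1 was past 2-fold in 11 of 20 comparisons, NANOG in 12 of 20, SOX2 in 13 of 17 and PRDM14 in 12 of 18. Overlap of cells between groups was looked at for the members only, so no share over all genes stands beside it.

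Between the early morula and the 16-cell stage 3 of the 4 genes differed by more than 2-fold, where 69.8% of all measured genes passed (44.7% higher and 25.1% lower). Size factors changed the share of higher calls among them to 46.2%, against 64.1% as deposited. POU5F1 averaged 1581 RPKM in early morula cells and 4723 at the 16-cell stage, a log2 difference of -1.58, and no cells overlapped. PRDM14 was lower by the most, at -4.22, again with no overlap. NANOG was higher, at 93.2 RPKM in the early morula and 36.7 at the 16-cell stage (log2 difference 1.32, or 0.55 with size factors), with overlapping cells. SOX2 differed by -0.23, on means of 12.9 RPKM in the early morula and 15.3 at the 16-cell stage. Between the late and the early morula 3 of the 4 were called, in mixed directions. POU5F1 was higher in the late morula (7718 RPKM, against 1581 in the early morula, log2 difference 2.29) and NANOG lower (14.5, against 93.2, -2.60), where 72.6% of measured genes were called (23.7% higher and 49% lower). With size factors the NANOG difference shrank to -0.26 and that of SOX2, -0.64 as deposited, turned to 2.09, while the median of all measured genes was 1.52 in place of -0.92, and 69.6% of calls were higher in place of 32.6%. PRDM14 averaged 27.1 RPKM in late and 1.23 in early morula cells (log2 difference 3.66), and without the late morula outer cell D-05 the difference was 2.45. Without the outer cell D-06 that of SOX2 was -1.58.

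Early blastocysts are the first embryos with a cavity, and they share no letter with the late morula. Inner early blastocyst cells held less POU5F1 than inner late morula cells, at 2310 RPKM (SD 1301, n = 10) and 7859 (1425, n = 5), and no cells overlapped (log2 difference -1.77). In the same cells NANOG averaged 95.9 RPKM in the early blastocyst and 12.2 in the late morula (log2 difference 2.87), and SOX2 16.0 and 0.607 (3.40). So 3 of 4 members were called, beside 71.7% of measured genes (48.3% higher and 23.4% lower). Without the late morula cell D-04 the NANOG difference was 3.52, and without the early blastocyst cell G-13 that of SOX2 was 2.80. PRDM14 differed by 0.75, or by 4.11 without the late morula inner cell D-08, which alone held 94.4 RPKM where the other 4 held 0.195 to 3.06.

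Between inner cells of the middle and early blastocyst NANOG and SOX2 were lower in the middle blastocyst, with log2 differences of -1.54 and -2.67, where 41% of measured genes were called (22.8% higher and 18.2% lower, with 55.7% of calls higher as deposited and 45.0% with size factors). NANOG averaged 32.3 RPKM (SD 49.5, n = 12) in the middle and 95.9 (103, n = 10) in the early blastocyst, and SOX2 1.67 (3.78) and 16.0 (22.1). The NANOG difference was -2.16 without the middle blastocyst cell H-03, and the SOX2 difference -2.07 without the early blastocyst cell G-13. POU5F1 differed by 0.58. The middle cells are of letters B, G and H and the early ones of A, G and H. In letter G NANOG averaged 1.41 RPKM in the middle and 118 in the early blastocyst, and in letter H 75.1 in the middle and 74.3 in the early one. POU5F1 averaged 916 RPKM in the middle and 1998 in the early blastocyst in letter G, and 1489 in the middle and 396 in the early one in letter H. The difference between these letters was not tested. PRDM14 differed by -0.91 and passed 2-fold, at -1.06 to -1.76, when any 1 of the middle blastocyst cells B-02, B-03 and B-06 or the early blastocyst cells A-07, A-08, G-11, G-18, H-03 and H-05 was left out.

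Between late and middle blastocyst inner cells NANOG was higher by 3.11 and SOX2 by 3.46, with 46.5% of measured genes called (25.1% higher and 21.4% lower), and POU5F1 differed by -0.48, or by -1.71 with size factors. NANOG averaged 286.8 RPKM (SD 401, n = 19) in late and 32.3 (49.5, n = 12) in middle blastocysts. Leaving out the middle blastocyst cell H-03 brought the NANOG difference to 3.74. PRDM14 was lower, with a log2 difference of -1.22, a call lost without the middle blastocyst cells B-02 (-0.84) or B-06 (-0.37), and it was -1.94 without the late cell G-14 and -1.82 without H-15. Without the 9 cells of conflicting stage the differences were 0.30 for POU5F1, 3.41 for NANOG, 4.28 for SOX2 and -1.10 for PRDM14. Over all hatched against all late blastocyst cells none of the 4 was called, beside 28.4% of measured genes (18.3% higher and 10.1% lower, with 64.4% of calls higher as deposited and 19.3% with size factors), with log2 differences of -0.71 for POU5F1, 0.13 for NANOG, -0.92 for SOX2 and -0.71 for PRDM14. With size factors POU5F1 was at -1.51, SOX2 at -1.87 and PRDM14 at -1.53. Without the 9 cells of conflicting stage POU5F1 differed by -1.49, NANOG by -0.17, SOX2 by -1.74 and PRDM14 by -0.82. SOX2 also passed 2-fold without the hatched cells H-03 (-1.08), H-05 (-1.04), H-07 (-1.08) or H-10 (-1.20), and PRDM14 without H-10 (-1.16). The pooled cells hold letters G and H, which differed in these genes.

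Which of the 4 genes were called between outer and inner cells varied between stages. At no stage was the share of members called far above that of all measured genes. At the 16-cell stage NANOG alone was called, beside 44.6% of measured genes (24% higher and 20.6% lower). Outer cells held 25.0, 56.2 and 77.2 RPKM, against 12.1 and 12.9 RPKM in inner cells, and the groups did not overlap (log2 difference 2.00). POU5F1 differed by -0.09, SOX2 by 0.26 and PRDM14 by -0.89. With so few cells single ones decided the small values: SOX2 was 1.21 without the inner cell B-02, and PRDM14 -1.41 without the outer cell B-02 and -1.35 without the inner cell B-02. Outer cells were also called higher for 4 of 6 trophectoderm markers and lower for none, and their part in the NANOG difference was not tested.

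In the early morula POU5F1 split by position with no overlap but under 2-fold. Outer cells held 955, 1046, 1237, 1299 and 1601 RPKM, against 1630, 1667, 1783, 2113 and 2483 RPKM in inner cells (log2 difference -0.66, or -0.98 with size factors). SOX2 went the other way, at 3.54, 8.20, 20.8, 23.1 and 41.8 RPKM in outer cells, against 0.0265, 2.07, 4.98, 9.33 and 14.9 RPKM in inner cells. Its cells overlapped, and the log2 difference of 1.498 (0.86, under 2-fold, with 10 RPKM added in place of 1) was the 1 call among 3 measured members, beside 25.3% of measured genes (16.1% higher and 9.12% lower, with 63.9% of calls higher as deposited and 42.9% with size factors). NANOG differed by -0.29.

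In the late morula SOX2 was again higher in outer cells. They held 0.321, 3.85, 9.97, 15.5 and 46.4 RPKM, against 0.0674, 0.127, 0.156, 0.997 and 1.69 RPKM in inner cells (log2 difference 3.33, with 58.1% of measured genes called, 31.2% higher and 26.9% lower). The groups overlapped through 1 outer cell, and without the outer cell D-06 the difference was 2.39. POU5F1 differed by -0.05 and NANOG by 0.43, or by 1.09 without the inner cell D-04 and 1.17 with size factors. PRDM14 rested on 1 cell on each side, D-05 at 171 RPKM among outer and D-08 at 94.4 among inner cells. Its difference of 0.78 was -3.70 without D-05, 4.14 without D-08, and 1.08 to 1.10 without the outer cells D-01, D-03, D-06 or D-10. Outer cells were shallower, at a median of 0.399 of the median depth and 0.600 for inner cells, and the part of depth in these differences was not tested.

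At the early blastocyst, within letter A, the sign for SOX2 was the opposite of that in the morula. The 6 outer cells held 0 to 3.54 RPKM, with a median of 0.0564, against 0.0561, 0.113, 0.271, 9.72 and 32.1 RPKM in the 5 inner cells (log2 difference -2.46, or -1.04 without the inner cell A-03 and -0.78, under 2-fold, with 10 RPKM added in place of 1). The outer cells lay inside the inner range or below it. Of the 4 members 2 were called, beside 61.7% of measured genes (29% higher and 32.7% lower). PRDM14 was lower, with a log2 difference of -1.13 (-0.83 with size factors), on means of 23.1 RPKM in outer and 51.8 in inner cells. That value was -3.31 without the outer cell A-02, and under 2-fold, at -0.50 to -0.88, without the outer cells A-06, A-08, A-09 or A-10 or the inner cells A-03 or A-05. POU5F1 differed by -0.01, or 0.83 with size factors, and NANOG by -0.18, which was -1.25 without the outer cell A-02 and 1.37 without the inner cell A-03. Trophectoderm markers moved with position, with a summed level of 10721 to 30422 RPKM in outer and 2257 to 13754 in inner cells, and their part in these differences was not tested.

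At the middle blastocyst, within letter B, inner cells held more POU5F1 and PRDM14. POU5F1 stood at 1031, 2442, 3074, 4433 and 4832 RPKM in outer cells, against 3943, 5793, 10470 and 11660 RPKM in inner cells (log2 difference -1.33). The groups overlapped, and with size factors the difference was -0.50, under 2-fold. PRDM14 was at most 0.164 RPKM in the 5 outer cells, against 0.220, 37.3, 64.5 and 108 RPKM in the inner cells, and no cells overlapped (log2 difference -5.65, or -5.04 without the inner cell B-06). So 2 of 3 measured members were called, beside 61% of measured genes (36.3% higher and 24.7% lower). SOX2 also did not overlap, at 0 to 0.0371 RPKM in outer and 0.151 to 10.4 in inner cells, though neither mean reached 5 RPKM. NANOG differed by -0.11, and by -3.26 without the outer cell B-01, which held 88.9 RPKM where the other outer cells held 0.226 to 3.54. The same cell held 102 RPKM of GATA2, a trophectoderm factor. Group means of lineage markers moved with position: 9 of 9 measured hypoblast markers were at least 2-fold higher in outer cells (median log2 difference 3.15). Of 10 trophectoderm markers 7 were higher and 1 lower (2.84), and of 8 epiblast markers 6 were lower and 1 higher (-3.40). Cell by cell the summed levels overlapped. Hypoblast markers summed to 59.8, 73.8, 804, 3680 and 4454 RPKM in outer cells and to 96.4 to 1174 in inner cells. Trophectoderm markers summed to 5078 to 63808 RPKM in outer and 25898 to 41066 in inner cells. The part of lineage markers in the differences of the members was not tested.

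The title letter went with large differences among inner cells of the same stage. At the early blastocyst the 5 cells of letters G and H averaged 1357 RPKM of POU5F1 (SD 924) and the 5 of letter A 3264 (825), a log2 difference of -1.27, and the cells overlapped. Within the first group the 3 letter G cells held 1578, 2021 and 2395 RPKM, and the 2 letter H cells 381 and 411. SOX2 was higher by 1.38 in letters G and H, a call lost without the cell G-13 (0.50) and turned to -0.13 by size factors, and it was 2.79 without A-03. PRDM14 was lower, with a log2 difference of -1.64, or -5.72 without G-13 and -1.01 without A-03. Both letter H cells had no read of PRDM14, where 3 reads would have been 0.124 and 0.0798 RPKM. NANOG differed by 0.14, or 1.70 without A-03 and -1.54 with size factors. Summed trophectoderm markers stood at 27.5 to 1486 RPKM in letters G and H and 2257 to 13754 in letter A, and 7 of 8 measured hypoblast markers were at least 2-fold lower in letters G and H and 1 higher (median log2 difference -4.11). Their part in these differences was not tested. In all 3 of 4 members were called, beside 73.6% of measured genes (45% higher and 28.5% lower, with 61.2% of calls higher as deposited and 37.8% with size factors).

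At the middle blastocyst the letters parted further. The 8 inner cells of letters G and H held 631 to 1952 RPKM of POU5F1, with an average of 1203 (SD 473), all below the 4 cells of letter B, which averaged 7966 (3689). The log2 difference was -2.73, and 2 of 3 measured members were called beside 79.4% of measured genes (55% higher and 24.4% lower, with 69.3% of calls higher as deposited and 49.2% with size factors). PRDM14 was at most 0.297 RPKM in letters G and H (log2 difference -5.68, or -5.07 without the letter B cell B-06), with 0.220 to 108 in letter B. SOX2 was at most 0.0612 RPKM in letters G and H, below all 4 letter B cells, which held 0.151 to 10.4. NANOG averaged 38.3 RPKM in letters G and H and 20.2 in letter B, a difference of 0.89 that passed 2-fold, at 1.05 to 1.62, without any 1 of the cells B-02, B-06, G-02, G-03, G-04, G-10 or H-05, and was 0.038 without H-03. Summed trophectoderm markers stood at 266 to 3026 RPKM in letters G and H and 25898 to 41066 in letter B, with 6 of 8 measured ones at least 2-fold lower and 2 higher. Of 8 measured hypoblast markers 4 were higher and none lower. Their part in these differences was not tested.

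Letters H and G of the middle blastocyst differed in NANOG. Letter H cells held 4.45, 39.2, 96.4 and 160.4 RPKM, against 0.395, 0.480, 1.08 and 3.69 RPKM in letter G cells, with no overlap (log2 difference 4.98, or 4.31 without H-03). This was the 1 call among 2 measured members, beside 59.8% of measured genes (25.6% higher and 34.2% lower), and POU5F1 differed by 0.70. GATA4, a GATA factor of the hypoblast, moved with it: it was at 0 in all 4 letter H cells and at 103 to 141 RPKM in all 4 letter G cells. Of 11 hypoblast markers 0 to 2 reached 10 RPKM in letter H cells and 7 or 8 in letter G cells. The letter and these markers cannot be told apart here.

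Late blastocyst cells of letter G did not form 1 population. POU5F1 ran from 0 to 171 RPKM in 8 cells and from 3727 to 9054 in the other 7, with none between. NANOG was at most 0.856 RPKM in 9 cells and 235.9 to 1087 in the other 6. SOX2 was at most 5.27 RPKM in 10 cells and 66.1 to 127 in 5. The 5 cells with SOX2, G-02, G-09, G-14, G-18 and G-20, were among the 6 with NANOG, and those 6 among the 7 with high POU5F1. PRDM14 was past 10 RPKM in 1 cell, G-14, at 63.2 RPKM, while G-09 and G-20 held 3.59 and 9.46.

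Lineage markers divided the low cells. The 5 letter G cells of conflicting stage held 349 to 936 RPKM of GATA2, with 6 to 10 of 11 trophectoderm markers at 10 RPKM and 2 of 10 epiblast markers. Their POU5F1 was 0, 14.4, 30.7, 31.0 and 87.2 RPKM and their NANOG 0.0496 to 0.623. The 3 cells G-11, G-12 and G-17 held 55.7 to 238.5 RPKM of GATA4 and 90.2 to 258.7 of SOX17, a second hypoblast factor, with 8 or 9 of 11 hypoblast markers, and POU5F1 of 56.9, 105 and 171 RPKM. In that order G-11, G-12 and G-17 also held 6, 3 and 5 of 10 epiblast markers at 10 RPKM. In the 7 cells of high POU5F1, GATA4 was at most 2.07 RPKM and SOX17 at most 0.123.

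The 4 late blastocyst cells of letter H, all of conflicting stage, were graded. POU5F1 stood at 490, 1085, 1114 and 1674 RPKM and NANOG at 26.1, 66.6, 610 and 1208 RPKM in the cells H-14, H-09, H-15 and H-03, in that order for both genes. SOX2 stood at 0.0248, 6.86, 9.08 and 14.6 RPKM in the same order. The 2 cells lowest in NANOG, H-14 and H-09, held 87.6 and 25.0 RPKM of GATA4, against 0.202 in H-15 and 9.58 in H-03. Against letter G all 4 members were called, beside 49.6% of measured genes (27.5% higher and 22.1% lower, with 55.4% of calls higher as deposited and 16.4% with size factors). The letter G cells are the mixture just described. The log2 differences were -1.39 for POU5F1, 1.02 for NANOG, -2.02 for SOX2 and 1.29 for PRDM14. As means of log2 values POU5F1 turned to 1.43 and SOX2 to 0.17, and with size factors NANOG turned to -0.22 and PRDM14 to -0.18. Without H-03 the NANOG difference was -0.0093, without H-15 0.88, and without any 1 of the 9 letter G cells low in NANOG 0.92. Without H-15 the PRDM14 difference was -2.46, and without G-14 2.94.

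In hatched blastocysts letters H and G were apart in all 4 genes, beside 45.1% of measured genes called (20.9% higher and 24.1% lower). POU5F1 ran from 2237 to 4858 RPKM with a median of 2735 in the 9 letter H cells, against 0.489 to 10.7 with a median of 0.775 in the 9 letter G cells. NANOG ran from 285 to 1064 RPKM with a median of 588 in letter H cells, against 0 to 1.44 with a median of 0.232 in letter G cells. SOX2 ran from 0.707 to 60.5 RPKM with a median of 25.4 in letter H cells, against 0 to 0.0277 with a median of 0 in letter G cells. For these 3 genes the cells of the letters did not overlap, a trait that was not counted over all genes. The log2 differences were 9.80 for POU5F1, 8.75 for NANOG and 4.89 for SOX2. PRDM14 overlapped, at 0 to 26.1 RPKM in letter H and 0 to 0.238 in letter G cells (log2 difference 3.07). With 10 RPKM added in place of 1 the 4 differences were 7.94, 5.93, 1.96 and 0.82, so that PRDM14 was no longer past 2-fold.

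Other markers moved with these letters. In the hatched blastocyst 6 or 7 of 10 epiblast markers and 4 or 5 of 11 trophectoderm markers reached 10 RPKM in letter H cells. In 8 of the 9 letter G cells, which the labels call inner, 7 to 9 trophectoderm markers and 1 or 2 epiblast markers did, with GATA2 at 140.2 to 735 RPKM. The ninth, G-14, held 242 RPKM of GATA4 and 201 of SOX17, with 10 of 11 hypoblast markers, and 4.71 RPKM of POU5F1. Summed trophectoderm markers stood at 492.7 to 1991 RPKM in letter H and 914 to 20779 in letter G cells. Of 5 fibroblast markers, COL1A2 averaged 158 RPKM in letter H and 0.0179 in letter G cells, while COL3A1 and LUM were at 0 in all 18. Letter and marker content cannot be told apart.

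**Figure D2:**
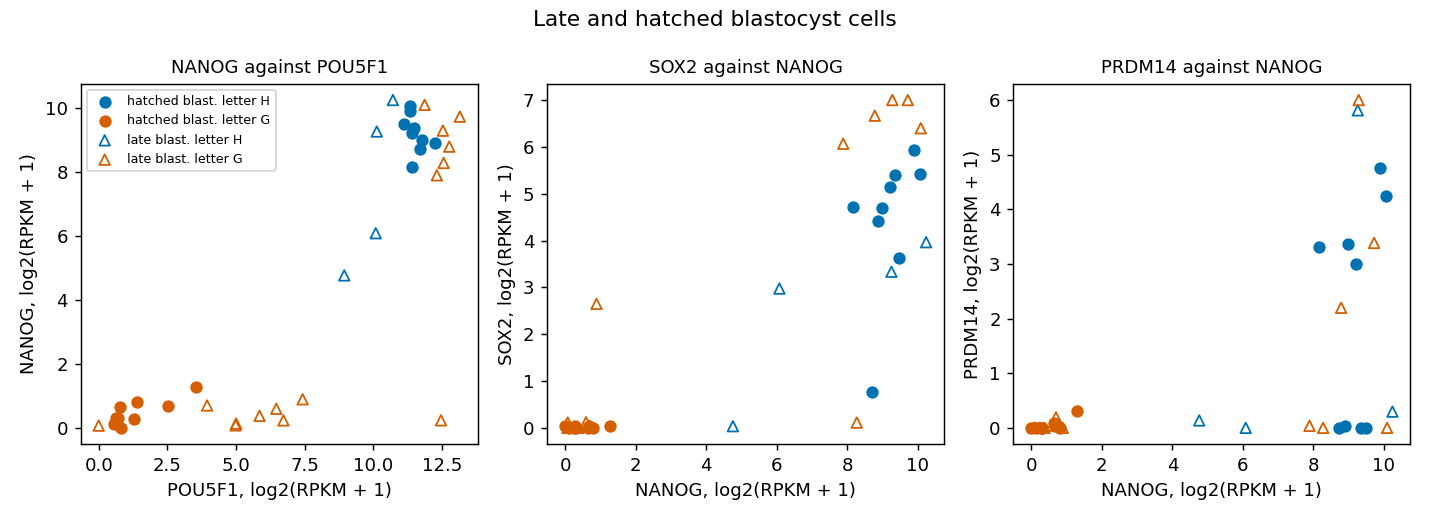
Pairs of members in single cells of hatched (filled circles) and late blastocysts (open triangles), letters H in blue and G in orange, on log2(RPKM + 1) axes. The 9 hatched cells of letter H lie together at high POU5F1 and NANOG, the 9 of letter G near the origin, and late blastocyst cells of letter G lie at both ends, with 1 cell at 5635 RPKM of POU5F1 and 0.176 of NANOG.

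Within 1 letter, POU5F1 and SOX2 differed between hatched and late blastocysts in opposite directions in letters G and H, though the difference between the letters was not tested. In letter G all 4 genes were lower in hatched than in late blastocysts, beside 42.8% of measured genes (26.6% higher and 16.2% lower, with 62.1% of calls higher as deposited and 19.7% with size factors). POU5F1 averaged 2.40 RPKM in hatched and 2857 in late blastocyst cells (log2 difference -9.71) and NANOG 0.457 and 235.9 (-7.34). SOX2 averaged 0.0110 RPKM in hatched and 33.97 in late blastocyst cells (-5.11), and PRDM14 0.0355 and 5.10 (-2.56). Without the late cell G-14 the PRDM14 difference was -0.91, under 2-fold. Without the 5 late cells of conflicting stage the 4 differences were -10.29, -7.93, -5.68 and -3.06. In letter H POU5F1 averaged 3039 RPKM in hatched and 1091 in late blastocysts with no overlap (log2 difference 1.48), and SOX2 29.0 and 7.64 (1.80), so 2 of 4 were called beside 40.9% of measured genes (21.2% higher and 19.7% lower, with 51.8% of calls higher as deposited and 62.3% with size factors). NANOG differed by 0.39, or 1.42 without the late cell H-03. PRDM14 differed by -0.78, was 2.97 without the late cell H-15, and was past 2-fold, down to -1.22, without the late cells H-03, H-09 or H-14 or the hatched cells H-03 or H-10. Since all late cells of letter H carry conflicting stage labels, this step may compare cells of 1 stage.

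In letter G the 4 genes were all higher in late than in middle blastocysts, beside 52.9% of measured genes (26% higher and 26.8% lower, with 49.3% of calls higher as deposited and 72.5% with size factors), by log2 differences of 1.64 for POU5F1, 6.62 for NANOG, 5.10 for SOX2 and 2.49 for PRDM14. As means of log2 values POU5F1 turned to -1.28, since 8 of the 15 late cells lay below every one of the 4 middle cells and the other 7 above them. PRDM14 was 0.85, under 2-fold, without the late cell G-14. Without the 5 late cells of conflicting stage the 4 differences were 2.22, 7.20, 5.67 and 2.995. In letter H NANOG averaged 478 RPKM in late and 75.1 in middle blastocysts (2.65, with 1.63 lacking the late cell H-03 and 3.33 lacking the middle cell H-03). SOX2 was higher by 3.09 and PRDM14 by 3.89, which was 0.14 without the late cell H-15, and POU5F1 differed by -0.45 (-1.40 with size factors), so 3 of 4 were called beside 55.5% of measured genes (34.8% higher and 20.7% lower, with 62.7% of calls higher as deposited and 38.3% with size factors). In middle blastocyst cells of letter H both SOX2 and PRDM14 had 0 or 1 read a cell, so these differences depend on the 1 RPKM added.

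**Figure D3:**
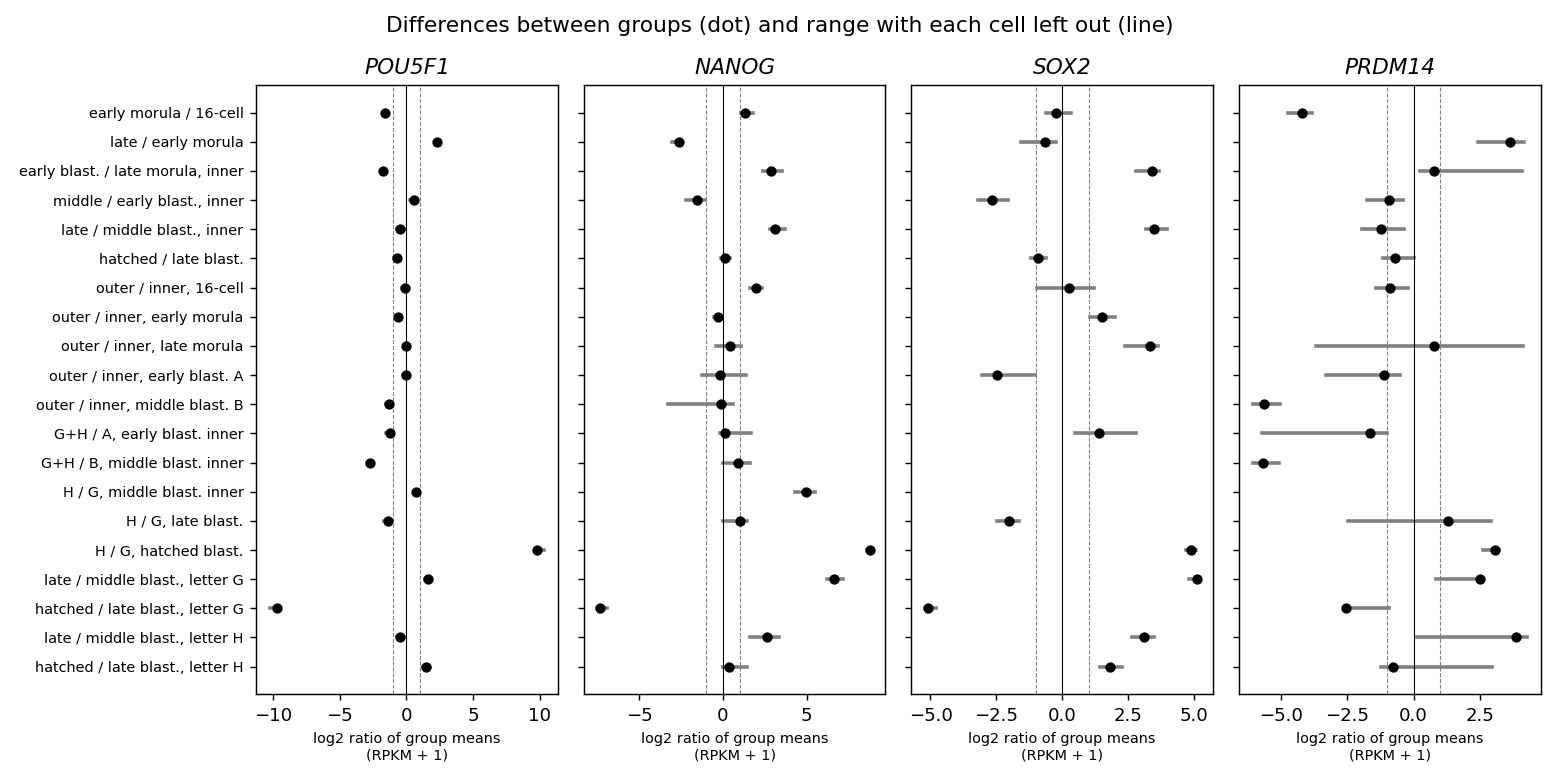
Log2 ratio of group means (RPKM + 1) for each member in up to 20 comparisons, each named with the group on top of the ratio first. Dots are all cells, grey lines the range when each cell is left out in turn, and dashed lines mark 2-fold. PRDM14 has the longest lines, up to -3.70 to 4.14 in outer against inner late morula cells.

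At 10 RPKM, 86 of 95 cells held POU5F1, 55 NANOG, 28 SOX2 and 20 PRDM14. Every one of the 55 NANOG cells, the 28 SOX2 cells and the 20 PRDM14 cells also held POU5F1. For the 55 the exact interval of that share was 93.5% to 100%, while POU5F1 itself was in 90.5% of all cells, so this share is close to the background. Of the 28 SOX2 cells 26 (92.9%, 76.5% to 99.1%) held NANOG, which 57.9% of all cells did. Among the 26 were 3 cells of the 16-cell stage, 4 of the early morula and 8 hatched cells of letter H. Every cell of these groups held NANOG, so the overlap there was fixed by the group. The reverse share was lower, with SOX2 in 26 of 55 NANOG cells (47.3%, 33.7% to 61.2%). Of the 20 PRDM14 cells 16 held NANOG and 10 held SOX2. At 1 RPKM all 72 NANOG, 45 SOX2 and 29 PRDM14 cells also held POU5F1.

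By combination, 26 cells held POU5F1 alone, 22 POU5F1 with NANOG, 17 these 2 with SOX2, 7 these 2 with PRDM14, and 9 all 4. The rest were 3 cells of POU5F1 with PRDM14, 1 with SOX2, 1 with both, and 9 with none. The 9 cells with all 4 came from every stage but the early and late morula: 3 at the 16-cell stage, 2 in early, 1 in middle, 1 in late and 2 in hatched blastocysts. The 9 cells with none were 8 hatched and 1 late blastocyst cells of letter G. All 4 letter G inner cells and 4 of 5 outer cells of the middle blastocyst held POU5F1 alone.

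**Figure D4:**
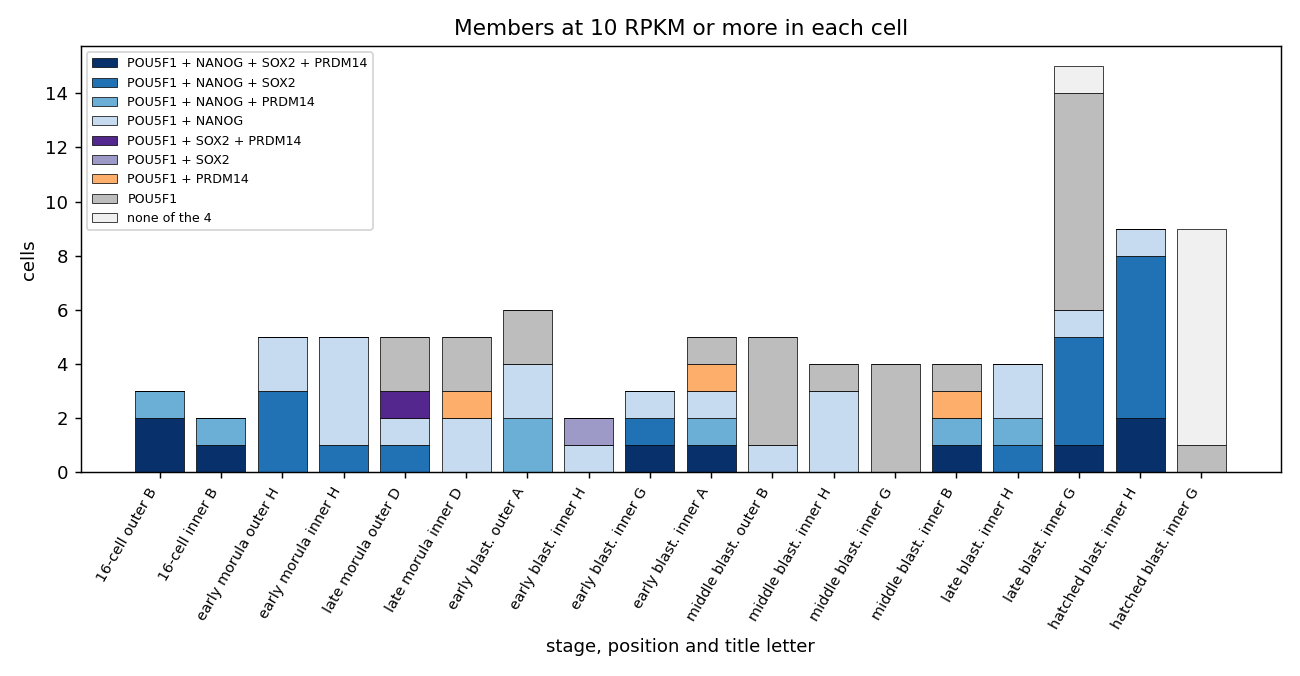
Number of cells (bar height) by stage, position and title letter, coloured by which of the 4 genes reached 10 RPKM. Cells with all 4 (darkest blue) number 9, and the 9 cells with none are hatched and late blastocyst cells of letter G.

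A few cells broke the common order of levels. In the late blastocyst G-23 held 5635 RPKM of POU5F1 with 4 reads of NANOG (0.176 RPKM) and no read of SOX2 or PRDM14, where 3 reads of SOX2 would have been 0.0975 RPKM. It held 7 of 10 epiblast markers at 10 RPKM, with a sum of 3105 RPKM, and the 6 cells of high NANOG held 5 to 7 with sums of 4102 to 6689. The count alone does not set such cells apart. The cells G-11, G-12 and G-17, of low POU5F1, held 6, 3 and 5 with sums of 1253, 1226 and 2390. G-06 of the same stage held 308 RPKM of NANOG and 3 reads of SOX2, and the hatched cell H-14 held 419 RPKM of NANOG and 0.707 of SOX2. Like G-23, 4 middle blastocyst cells of letter B held much POU5F1, at 3074 to 4832 RPKM, with under 1 RPKM of NANOG: the outer cells B-02, B-06 and B-07 and the inner cell B-05. SOX2 without NANOG at 10 RPKM occurred in 2 cells, the late morula outer cell D-05 (15.5 RPKM, NANOG 7.03) and the early blastocyst inner cell H-05 (31.2, NANOG 9.16), both with NANOG near the level that counts a cell.

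Lineage factors overlapped with the members to different degrees. GATA4 was at 10 RPKM in 16 of 95 cells and SOX17 in 18, and 15 and 17 of these held POU5F1. Since 90.5% of all cells held POU5F1, both shares are close to the background. NANOG shared 5 cells with GATA4 and 6 with SOX17. SOX2 shared none of its 28 cells with either, but 9 of these came from the 16-cell stage and morulae, where none of 25 cells reached 10 RPKM of GATA4 or SOX17. For the 19 SOX2 cells of blastocysts a count of 0 allows a share of up to about 15.8%, an approximate limit and not an exact interval. Of all 70 blastocyst cells 22.9% held GATA4 and 25.7% SOX17. Among the 19 were 8 hatched cells of letter H, a group where no cell reached 10 RPKM of either. These pooled shares therefore cannot show whether SOX2 and the 2 factors avoid each other. GATA2 was in 23 cells, of which 15 held POU5F1, 6 NANOG, 2 SOX2 and 1 PRDM14. GATA3, a second trophectoderm factor, was in 36 cells and shared 28 with POU5F1, 15 with NANOG, 4 with SOX2 and 10 with PRDM14. CDX2, which in the mouse opposes POU5F1 in the trophectoderm, was in 11 cells, of which 10 held POU5F1, 7 NANOG and 1 SOX2. The shares of CDX2 cells with POU5F1 and with NANOG were close to those of all cells, 90.5% and 57.9%. The early blastocyst outer cells show the mixture: A-02 held 3934 RPKM of POU5F1, 292 of NANOG and 65.4 of GATA4, and A-08 held 2075 of POU5F1, 193 of GATA2 and 63.1 of GATA4.

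Within 1 stage and letter, correlations between members were small or varied in sign. Correlations of log2(RPKM + 1) over cells are given as a description, for sets of at least 9 cells that share stage and letter, without a p-value. The sets of both morula stages, early blastocyst letter A and middle blastocyst letter B pool outer and inner cells. Differences by position therefore enter those values. POU5F1 and NANOG had a Pearson r of 0.56 (Spearman 0.62) over 10 early morula cells, and 0.18 without the 2 cells farthest from the median. The pair had r of -0.15 over 10 late morula cells (0.03 without 2 cells), 0.20 over 11 early blastocyst cells of letter A (0.49 without 2) and -0.07 over 9 middle blastocyst cells of letter B (0.46 without 2). In the 9 hatched cells of letter H it was -0.43 (Spearman -0.62), and -0.49 without 2 cells. NANOG and SOX2 had r of -0.10 in the early morula, with 0.56 lacking 2 cells, and 0.45 (Spearman 0.62) in hatched cells of letter H, with 0.66 lacking 2. POU5F1 and SOX2 had r of -0.39 in the early morula and -0.23 in hatched cells of letter H, with -0.35 and -0.54 lacking 2 cells. No r is given for 7 further pairs, among them all 3 in late blastocyst letter G, because a gene fell into separate clusters. All other pairs were left out because either gene reached 10 RPKM in fewer than 3 cells of the set. No r with PRDM14 is given in any set.

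Over all 95 cells, which differ in stage, letter, position and depth, the genes whose log2 levels followed each member most closely were found among 8488 genes at 10 RPKM in at least 5 cells. Pearson's r is the measure of likeness. POU5F1 was followed by RBPMS2 (0.84), TUBB4A (0.81), AK4 (0.81), ZNF296 (0.70) and MRPS12 (0.70). NANOG was followed by DPPA5 (0.67), DPRX (0.66), ZYG11A (0.65), CSDA (0.65) and HIST1H2BK (0.63). SOX2 was followed by CSDA (0.61), ZYG11A (0.58), RNASE9 (0.56), FEZ1 (0.56) and DPRX (0.56), 3 of which also followed NANOG. PRDM14 was followed less closely, by EPHB4 (0.56), EPHB6, C19orf25, EGLN2 and ATG9B (0.49 each). With Spearman's rho 4 of the 5 genes stayed in the top 5 of NANOG, 2 of SOX2, 2 of PRDM14 and none of POU5F1. Averaged within the 7 sets of 1 stage and letter, 1 stayed for NANOG and none for the others.

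A list of 41 partners and targets of the 4 factors, 39 of them in the table, was set beside them. Between hatched cells of letters H and G, 19 of its 32 measured genes were at least 2-fold higher and 5 lower, with a median log2 difference of 1.68. All measured genes had a median of -0.06, with 20.9% called higher and 24.1% lower. DPPA5 and DPPA2, genes of pluripotent cells, averaged 2456 (SD 408) and 512 (132) RPKM in letter H and 2.18 (2.11) and 1.36 (3.30) in letter G cells. ETV4, an ETS factor, and GDF3, a TGF-beta family ligand, were higher by 5.73 each. The 5 lower ones, named after their values were seen, were TBX3, TET2, TFCP2L1, EED and KLF5.

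At the other steps the list did not always follow the members. Between inner early blastocyst and late morula cells 17 of 26 were higher and 4 lower (median 2.75), beside 48.3% and 23.4% of all measured genes (median 0.87). FGF4 is the growth factor that SOX2 and POU5F1 are known to switch on together in mouse cells. It averaged 62.9 RPKM (SD 172) in inner early blastocyst cells and was listed at 0 in all 5 inner late morula cells. Split by title letter, its early blastocyst mean was under 1 RPKM in G (n = 3) and likewise in H (n = 2). The pooled FGF4 mean therefore rested on inner cells with the letter A. An SD so far above the mean requires 1 cell to hold most of it. Between the late and early morula 3 of 22 were higher and 13 lower (median -1.62), beside 23.7% and 49% of all measured genes (median -0.92). With size factors 10 were higher and 5 lower, and the calls over all genes were 3707 higher and 1618 lower in place of 1562 and 3234. L1TD1, an RNA-binding protein gene, averaged 2.19 RPKM in the late and 206 in the early morula. Between outer and inner middle blastocyst cells of letter B 8 of 24 were higher and 11 lower (median -0.70), beside 36.3% and 24.7% of all measured genes (median 0.33). FGF4, UTF1, GDF3 and NODAL were the lowest there, at most 0.708 RPKM on average in outer cells and 49.0 to 99.1 in inner cells.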

How the data were processed

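Polyadenylated RNA of 95 single macaque embryo cells was amplified by PCR, without molecular identifiers, and sequenced as 100-base single-end reads, per the labels' protocols. FastQC, TopHat2 2.1.0, HTSeq and DESeq2 are named in the submitters' processing notes, with no role given; the genome build and annotation are not given in the sources used here. The authors deposited 1 table of 16049 gene symbols by 95 cells with no unit named. Its values were read as RPKM. Of its genes 12819 (79.9%) came out as whole multiples of the worth of 1 read, within 0.05 of a read. Any reads scaled by gene and by cell would give this, so it does not single out RPKM. The RPKM were used as deposited; a count test was not run, since each group is 1 sample and cells are not replicates. SDs are over cells. All 95 columns of values were used (0 left out), and 14282 symbols, among them the 4 members, matched the RefSeq gene table.

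Groups were compared by log2 of the ratio of mean RPKM after adding 1, where a mean reached 5 RPKM, and called at 2-fold. A cell was counted as holding a gene at 10 RPKM, with 1 and 50 as alternatives. Correlations used sets of 1 stage and letter with at least 9 cells, and none was computed where a gap of over 3 log2 units parted a gene into clusters, a rule added after seeing the data. Pairs in which either gene reached 10 RPKM in fewer than 3 cells of a set were also left out. The text names the 4 members, the 5 genes most like each and up to 4 partner genes of largest difference a comparison. Members, marker lists and the partner list were chosen with earlier results of these data known. The steps were tested on simulated data. Python 3.11.15, numpy 2.4.6, pandas 2.3.3, scipy 1.17.1 and matplotlib 3.10.9 were used.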

Additional observations from a re-analysis of the deposited data

Results flagged for a closer look

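In 42 sets of 4 to 10 cells (1 gene in 1 group), the highest or lowest cell was set against the rest, and in 10 it stood far from the others for a set of its size. Chance gives this in about 1 in 20 sets of normally distributed values. These values are skewed and some sets share cells, and the rate for such sets was not measured. PRDM14 accounts for 4: the late morula outer cell D-05 held 171 RPKM (others at most 1.82), the late morula inner cell D-08 held 94.4 (others at most 3.06), the early blastocyst outer cell A-02 held 117 (others at most 21.3) and the late blastocyst cell H-15 held 55.3 (others of its letter at most 0.229). NANOG accounts for 3: the early blastocyst outer cell A-02 held 292 RPKM (others at most 109), the early blastocyst inner cell A-03 held 334 (others of letter A at most 76.9) and the middle blastocyst outer cell B-01 held 88.9 (others at most 3.54). SOX2 reached 68.5 RPKM in the early blastocyst inner cell G-13 (others at most 32.1). POU5F1 reached 10.7 RPKM in the hatched blastocyst cell G-05 (others of letter G at most 4.71) and 4858 in the hatched cell H-11 (others of letter H at most 3509). D-05 and A-03 were among the 6 cells under 0.5 of the median depth. Between hatched and late blastocysts POU5F1 differed by -9.71 on the log2 scale in letter G and by 1.48 in letter H. The difference between the letters was not tested.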

How the results depend on the processing

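Of the 48 values past 2-fold, 46 stayed past it with depth-weighted means, 46 with factors over genes above 0 in all cells, 41 with means of log2 values, 41 with median-of-ratios size factors and 37 with 10 RPKM added. Of such values that involve late or hatched blastocysts and could be computed again, 11 of 11 stayed so without the 9 cells of conflicting stage. With those cells moved to hatched 15 of 15 did. Comparisons of late blastocyst cells of letter H with letter G, or with middle or hatched cells of letter H, could not be made in either way. No paired analysis was possible because replicate numbers name cells of 1 group and pair no samples. Depth limited low values, since 3 reads of SOX2 stood for up to 0.392 RPKM. The causes of the changes below were not tested.

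With size factors POU5F1 was -2.43 in early morula against 16-cell, 4.89 in late against early morula, -0.98 in outer against inner early morula, 0.83 in outer against inner early blastocyst (letter A) and -0.50 in the middle one (letter B). It was -3.24 and -4.56 in letters G and H against A and B of early and middle blastocyst, and -1.40 in late against middle (letter H). In late against early morula NANOG was -0.26, SOX2 2.09 and PRDM14 5.99. SOX2 turned to -0.13 in early blastocyst letters G and H against A, and NANOG and PRDM14 to -0.22 and -0.18 in late blastocyst letters H against G. NANOG was 8.04 in hatched letters H against G. With factors over genes above 0 in all cells POU5F1 was 2.69 in late against early morula and -3.48 in middle blastocyst letters G and H against B.

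With 10 RPKM added PRDM14 was -2.17 (early morula against 16-cell), -2.63 (outer against inner middle blastocyst), -2.64 (middle letters G and H against B), 0.82 (hatched H against G), 0.58 and -0.59 (letter G, late against middle and hatched against late) and 1.26 (letter H, late against middle). SOX2 was 1.29 (early blastocyst against late morula), 1.25 and -0.78 (outer against inner late morula and early blastocyst), 1.96 (hatched H against G), 2.13 and -2.13 (letter G, late against middle and hatched against late) and 0.82 (letter H, late against middle). NANOG was 2.90 and 5.93 and POU5F1 7.94 (middle NANOG, then both in hatched, H against G).

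As means of log2 values POU5F1 turned to 1.43 and SOX2 to 0.17 in late blastocyst H against G, and POU5F1 to -1.28 in letter G, late against middle. PRDM14 was 1.34 in late against early morula, 0.69 and 1.55 in late against middle (letters G and H) and -0.74 in hatched against late (letter G), where NANOG was -3.33 and SOX2 -2.40. With conflicting cells moved to hatched, POU5F1 was 7.42 in hatched H against G.

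Leaving out each cell in turn, 7 values lost and 15 gained a call. PRDM14 ranged from 0.25 to 4.11 (early blastocyst against late morula), -3.70 to 4.14 (outer against inner late morula), -5.72 to -1.01 (early blastocyst G and H against A), -2.46 to 2.94 (late H against G), 0.85 to 2.59 and -2.64 to -0.91 (letter G, late against middle and hatched against late), 0.14 to 4.28 and -1.22 to 2.97 (letter H, same steps). NANOG ranged from -3.26 to 0.63 (outer against inner middle blastocyst) and -0.0093 to 1.44 (late H against G).

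At 1 RPKM SOX2 was held by 45 cells, 45 with POU5F1, 44 with NANOG and 23 with PRDM14, NANOG and PRDM14 together by 29 and all 4 by 23. At 50 RPKM these were 7, 7, 7, 2, 5 and 2, and 11 cells held PRDM14, all 11 with POU5F1. The next 2 alternatives were added after seeing the data: without the 6 shallow cells 8 cells held all 4, and without the 9 conflicting cells 9. Without 2 cells r was 0.18 (POU5F1 and NANOG) and 0.56 (NANOG and SOX2) in the early morula and 0.46 (POU5F1 and NANOG) in middle blastocyst letter B. Of the 5 genes most like each member, Spearman's rho shared 0 for POU5F1, 2 for SOX2 and 2 for PRDM14, and the mean r within sets 1 for NANOG and 0 for the other 3. Over all genes, adding 10 RPKM gave 0.240 to 0.680 times as many calls (398 in place of 1661 in outer against inner early morula, 3536 in place of 5200 in middle blastocyst G and H against B), and no filter 1.27 to 1.70 times (3219 in place of 2055 in hatched against late blastocyst, 3490 in place of 2317 in outer against inner 16-cell, 2821 in place of 1661 in the early morula).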
